A study of Mus musculus with 6 samples.

Results

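The clock output transcription factors are 7 genes that the circadian clock drives and that pass its rhythm on to other genes. They were chosen by name, as Dbp, Tef, Hlf, Nfil3, Bhlhe40, Bhlhe41 and Ciart, from the 54146 genes of the expected-count table, with Ensembl identifiers matched to symbols. All 7 were found, and all 7 were among the 14386 genes that passed the filter on low counts. Bulk RNA was sequenced from mouse kidney in 6 libraries, 2 in each of 3 groups. In every group, also in the controls, a kidney had been removed at 6 weeks of age, and the mice were then kept on a diet with 4% salt. The WT group is labelled wild type. The G0APOL1 and G2APOL1 groups carried a cell-specific, inducible transgene of human APOL1, in the reference form G0 or in the kidney-risk form G2. The labels put EC before both transgenic genotypes without spelling it out, and neither the driver nor the inducing agent is named. The sources used here also leave out strain, sex, age at collection and time of day of collection. Clock genes and their outputs change with the time of day, so a difference between groups and a difference in collection time cannot be told apart for any change given below. Whether both libraries of a group are from different mice is not stated, so errors and p-values measure the spread between these samples, which may be technical. The human transgene itself was not analysed here.

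As background, the mammalian clock is a feedback loop in which CLOCK or NPAS2, paired with BMAL1 (the product of Arntl), activates genes through E-boxes with the letters CACGTG. DBP, TEF and HLF form the PAR bZIP family, activators that bind a second element, the D-box. NFIL3 is a bZIP repressor of the same D-box. BHLHE40 and BHLHE41 are repressors that bind E-boxes, and CIART represses the CLOCK and BMAL1 pair. In the kidney and the liver these factors are known for carrying daily rhythms into transport, detoxification and metabolism.

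Total counts ranged from 8490396 to 11800932 per library, and the mitochondrial genome took 12.6% to 21.1% of them. Markers of the proximal tubule, the thick ascending limb and the collecting duct's principal cells were detected in every library. G0APOL1 replicate 2 stood apart on the second principal component of log2 CPM, which held 22.6% of the variance, at -72.06 against -26.96 to 36.16 for the other 5 libraries. Calls among the members that were lost or gained without it are named beside those results. The same is done for some, but not all, of the calls in the clock-linked gene lists that depend on it. Levels below are CPM, counts scaled to library size with TMM factors, as mean ± SD with n = 2 libraries per group. Changes are log2 fold changes ± standard error from edgeR's quasi-likelihood test across all tested genes, and p-values are Benjamini-Hochberg adjusted over those genes, with a threshold of 0.05.

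Of the 7 members, 2 passed in the G2APOL1 to WT comparison, both higher, where 8.19% of tested genes passed, 4.57% higher and 3.62% lower. In G0APOL1 against WT 3 passed, 2 higher and 1 lower, where 8.17% of tested genes passed, 4.48% higher and 3.68% lower. In G2APOL1 against G0APOL1 1 passed, higher, where 0.48% of tested genes passed, 0.174% higher and 0.306% lower. Dbp was low in G0APOL1 against both other groups, while Hlf and Bhlhe40 were higher in both transgenic groups than in WT. Nfil3 was at its highest level in G2APOL1 without passing the threshold. The median log2 fold change over the 7 members was 0.16 in G2APOL1 against WT, 0.06 in G0APOL1 against WT and 0.10 in G2APOL1 against G0APOL1. The medians over all tested genes were -0.04, 0.02 and -0.02. Both comparisons with WT use the same 2 WT libraries, so their values are given side by side and not as support for each other.

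**Figure D1:**
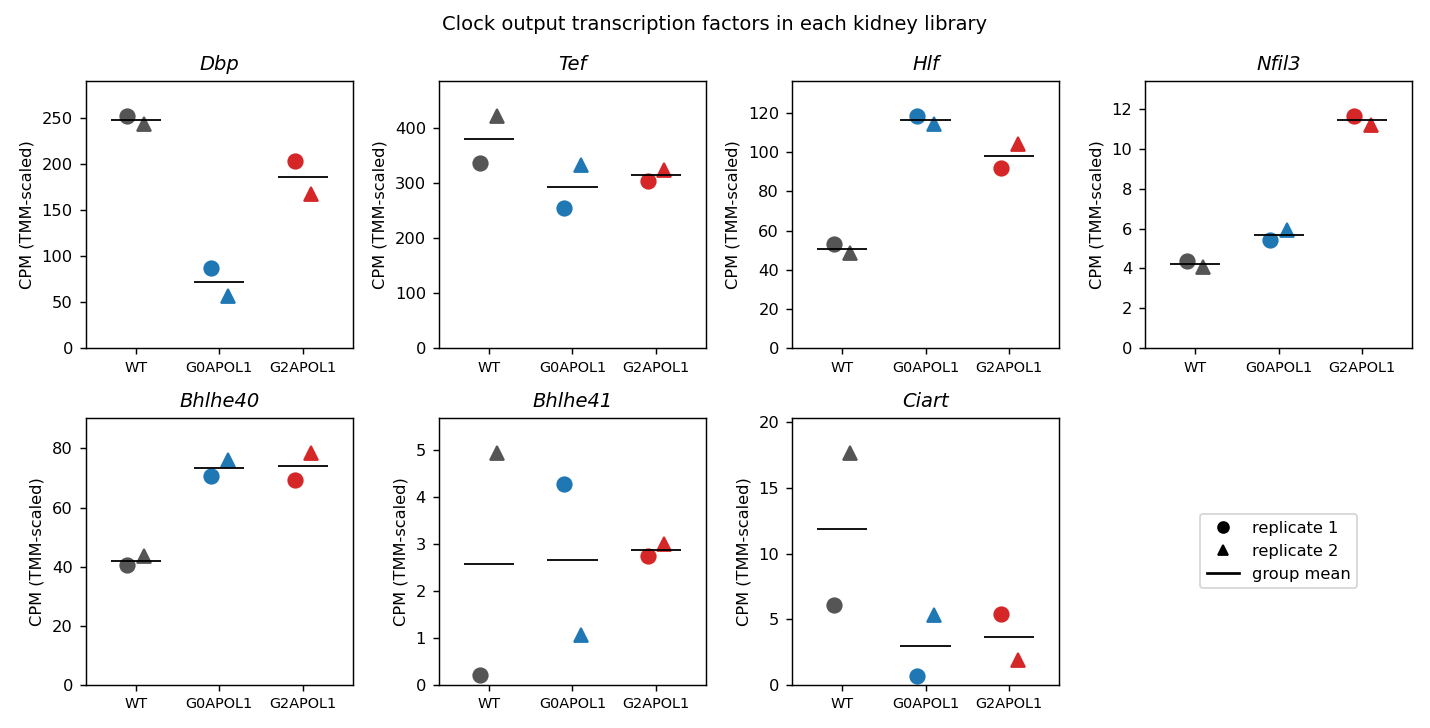
TMM-scaled CPM (linear axes from 0) of each of the 7 genes in the 6 kidney libraries, with circles for replicate 1, triangles for replicate 2 and a line for the mean of the 2 libraries. The G0APOL1 libraries lie lowest for Dbp, at 86.9 and 56.3 CPM, the WT libraries lowest for Hlf and Bhlhe40, and the G2APOL1 libraries highest for Nfil3, while Bhlhe41 and Ciart scatter widely within groups.

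The promoter windows of the members are shown because the E-box is an element, among others, through which the clock reaches output genes. Of the 7 members, 6 had a window in RefSeq's annotation of GRCm38.p6, running from 250 bases before to 50 bases after the start site, and Tef had 2 of them. CACGTG reads the same on both strands, and capitals mark it. Ciart held 3 E-boxes (chr3:95882179-95882478, minus strand), at 116, 58 and 44 bases before its start. Bhlhe41 held 1 (chr6:145865371-145865670, minus strand). Tef held 1 at each of its starts, of which the downstream one is shown (chr15:81811164-81811463, plus strand). The Dbp window held none (chr7:45704997-45705296, plus strand).
Ciart: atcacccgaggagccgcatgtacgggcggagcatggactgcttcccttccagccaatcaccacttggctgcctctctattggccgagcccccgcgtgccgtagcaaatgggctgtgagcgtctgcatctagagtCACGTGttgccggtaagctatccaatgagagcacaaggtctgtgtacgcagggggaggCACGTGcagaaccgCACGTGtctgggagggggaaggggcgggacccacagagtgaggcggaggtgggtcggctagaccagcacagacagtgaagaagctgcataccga
Bhlhe41: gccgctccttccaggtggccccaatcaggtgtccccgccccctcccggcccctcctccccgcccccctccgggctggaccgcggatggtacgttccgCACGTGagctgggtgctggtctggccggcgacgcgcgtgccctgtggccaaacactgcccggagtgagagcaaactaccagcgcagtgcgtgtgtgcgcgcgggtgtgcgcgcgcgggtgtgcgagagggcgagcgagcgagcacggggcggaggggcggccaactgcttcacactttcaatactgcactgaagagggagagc
Tef, downstream start: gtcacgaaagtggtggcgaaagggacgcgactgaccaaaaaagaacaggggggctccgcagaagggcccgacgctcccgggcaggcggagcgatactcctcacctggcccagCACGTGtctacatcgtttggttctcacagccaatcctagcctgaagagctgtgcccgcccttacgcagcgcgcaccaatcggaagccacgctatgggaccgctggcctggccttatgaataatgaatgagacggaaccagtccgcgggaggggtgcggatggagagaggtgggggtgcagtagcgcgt
Dbp: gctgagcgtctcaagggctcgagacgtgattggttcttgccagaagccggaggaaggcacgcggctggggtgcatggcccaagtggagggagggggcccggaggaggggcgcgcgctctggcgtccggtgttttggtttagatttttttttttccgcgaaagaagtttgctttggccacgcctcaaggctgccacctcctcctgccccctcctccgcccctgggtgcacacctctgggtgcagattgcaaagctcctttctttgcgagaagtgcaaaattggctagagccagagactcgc
Among all 32851 windows of this length, 7.15% held at least 1 CACGTG and 29 windows (0.0883%) held at least 3. The D-box, searched as TTATGTAA or TTACGTAA on both strands, was in none of the members' windows and in 1.06% of all windows. The element of the ROR and REV-ERB receptors, searched as TAGGTCA or TGGGTCA on both strands, was in 1 member's window, that of Nfil3, at 12 bases before its start, and in 6.45% of all windows. None of the sites found in the members overlapped another, and a match or its absence describes only the letters of the window. The Nfil3 window (chr13:52980990-52981289, minus strand) and the Hlf window (chr11:90390868-90391167, minus strand) held no CACGTG.

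Dbp, the D-box activator with the widest daily swing of the PAR bZIP genes in many mouse tissues, lies on chromosome 7 (45705088 to 45710203, plus strand, GRCm38, ENSMUSG00000059824.12). It was at 253 and 244 CPM in WT, 86.9 and 56.3 CPM in G0APOL1, and 204 and 168 CPM in G2APOL1. The G0APOL1 libraries lay below all others, and the 3 groups did not overlap. In G0APOL1 against WT Dbp fell by 1.79 ± 0.22 (adjusted p = 0.000452, edgeR), from 248.2 ± 6.49 to 71.6 ± 21.6 CPM. The call stood whichever library was left out, at -1.498 without G0APOL1 replicate 2 (adjusted p = 0.00821). In G2APOL1 against G0APOL1 Dbp was higher by 1.38 ± 0.22 (adjusted p = 0.0138), at 185.9 ± 25.9 CPM. This call was lost without G0APOL1 replicate 2 (1.10, adjusted p = 0.16) and without G2APOL1 replicate 1 (1.26, adjusted p = 0.112). In G2APOL1 against WT it was at -0.42 ± 0.21 (adjusted p = 0.277).

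A gene on the opposite strand shares part of the Dbp locus. Sphk2, which encodes a sphingosine kinase, overlaps 18.0% of the exonic bases of Dbp, and the use of strand in counting is not given in the sources used here. Sphk2 was at 132 and 139 CPM in WT, 62.5 and 49.2 CPM in G0APOL1, and 86.2 and 88.5 CPM in G2APOL1. It fell with Dbp in G0APOL1 against WT, by 1.28 on the log2 scale (adjusted p = 0.00152, edgeR), and was at 0.64 in G2APOL1 against G0APOL1 (adjusted p = 0.315). Whether reads from the shared exons were told apart between these 2 genes is therefore not known, and the part of such reads in the Dbp values was not tested.

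Tef, the most even of the PAR bZIP activators here, lies on chromosome 15 (81802421 to 81826863, plus strand, ENSMUSG00000022389.15). It was at 337 and 421 CPM in WT, 254 and 333 CPM in G0APOL1, and 303 and 324 CPM in G2APOL1. The WT libraries were above the others, but the gap was smaller than the spread within WT. Tef was at -0.37 ± 0.20 in G0APOL1 against WT (adjusted p = 0.311), -0.27 ± 0.20 in G2APOL1 against WT (adjusted p = 0.468) and 0.10 ± 0.20 in G2APOL1 against G0APOL1 (adjusted p = 0.984, edgeR). It passed in no comparison and under none of the 14 alternatives.

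Hlf, a PAR bZIP activator first known from a leukaemia translocation in humans, lies on chromosome 11 (90336536 to 90390895, minus strand, ENSMUSG00000003949.16). It was at 53.2 and 48.3 CPM in WT, 119 and 114 CPM in G0APOL1, and 91.8 and 104 CPM in G2APOL1. All 4 transgenic libraries were above both WT libraries, against the direction of Dbp. Hlf rose by 1.20 ± 0.18 in G0APOL1 against WT (adjusted p = 0.00183, edgeR), and this call stood whichever library was left out. In G2APOL1 against WT it rose by 0.95 ± 0.18 (adjusted p = 0.00722), a call lost without G2APOL1 replicate 2 (0.87, adjusted p = 0.118). The 2 transgenic groups were at -0.25 ± 0.18 relative to each other, G2APOL1 below G0APOL1 (adjusted p = 0.901).

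Levels of the 3 activators can be set beside each other per kilobase of exon. The length is the union of annotated exons, 2993 bases for Dbp, 7867 for Tef and 6681 for Hlf. Which transcripts were present was not tested, so the ranking and shares depend on these lengths, and the overlap of Dbp with Sphk2 applies here too. In WT Dbp was first, at 82.9 ± 2.17 CPM per kilobase, then Tef at 48.2 ± 7.61 and Hlf at 7.603 ± 0.519. In G0APOL1 Tef came first, at 37.3 ± 7.08, then Dbp at 23.9 ± 7.23 and Hlf at 17.4 ± 0.46. In G2APOL1 the order was that of WT, with Dbp at 62.1 ± 8.65, Tef at 39.8 ± 1.85 and Hlf at 14.7 ± 1.31. The libraries of these neighbouring genes did not overlap in any group. The summed level of the 3 was 135 and 142 CPM per kilobase for WT, 79.1 and 78.2 for G0APOL1, and 120.5 and 113 for G2APOL1. The share of Dbp in this sum was 62.5% and 57.2% for WT, 36.7% and 24.1% for G0APOL1, and 56.6% and 49.7% for G2APOL1. Hlf made up 5.89% and 5.09% for WT, 22.4% and 21.9% for G0APOL1, and 11.4% and 13.8% for G2APOL1. Dbp stood at 10.6 and 11.2 times the level of Hlf in WT, 1.64 and 1.10 times in G0APOL1, and 4.965 and 3.592 times in G2APOL1.

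**Figure D2:**
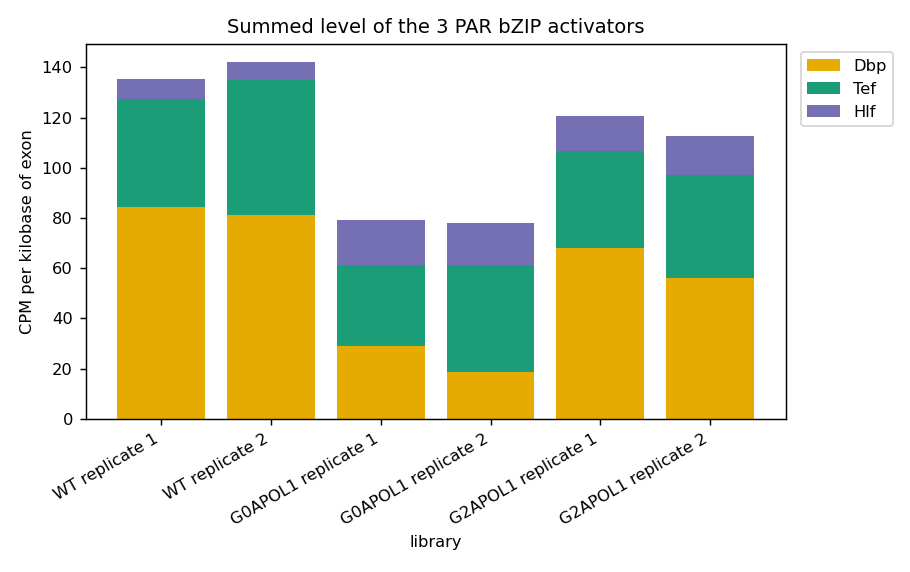
Bars show CPM per kilobase of exon, stacked for the D-box activators Dbp, Tef and Hlf, in each of the 6 libraries. The G0APOL1 bars reach 79.1 and 78.2, the WT bars 135 and 142, and the Dbp segment is shortest in G0APOL1.

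Nfil3, the D-box repressor, lies on chromosome 13 (52967209 to 52981073, minus strand, ENSMUSG00000056749.7). It was at 4.36 and 4.07 CPM in WT, 5.44 and 5.91 CPM in G0APOL1, and 11.7 and 11.2 CPM in G2APOL1. The groups did not overlap, and the 2 libraries of each group lay close together, but the WT libraries hold only 44 and 37 reads of it. Nfil3 was at 1.44 ± 0.44 in G2APOL1 against WT (adjusted p = 0.0665, edgeR) and passed under none of the 14 alternatives, with adjusted p from 0.0562 to 0.354. It was at 0.43 ± 0.45 in G0APOL1 against WT (adjusted p = 0.655) and at 1.009 ± 0.44 in G2APOL1 against G0APOL1 (unadjusted p = 0.0381, adjusted p = 0.695). Per kilobase, the summed activators stood at 62.8 and 70.9 times Nfil3 in WT, 29.4 and 26.8 times in G0APOL1, and 20.9 and 20.4 times in G2APOL1. Both transgenic groups lay below WT in this ratio, and the groups did not overlap.

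Bhlhe40, an E-box repressor that hypoxia and other stresses also induce, lies on chromosome 6 (108660629 to 108666925, plus strand, ENSMUSG00000030103.11). It was at 40.7 and 43.5 CPM in WT, 70.8 and 76.0 CPM in G0APOL1, and 69.4 and 78.6 CPM in G2APOL1. All 4 transgenic libraries were above WT, and the 2 transgenic groups overlapped. Bhlhe40 rose by 0.81 ± 0.19 in G2APOL1 against WT (adjusted p = 0.0195, edgeR), from 42.1 ± 2.02 to 74.0 ± 6.56 CPM. In G0APOL1 against WT it rose by 0.80 ± 0.19 (adjusted p = 0.0206), and it was at 0.01 ± 0.19 between the transgenic groups (adjusted p = 0.997). These calls are near the threshold. The first was lost without G2APOL1 replicate 1 (adjusted p = 0.115) or 2 (adjusted p = 0.234). The second was lost without any of the 4 transgenic libraries, with adjusted p up to 0.0897, and in a fit of only the 4 libraries compared (adjusted p = 0.082).

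Bhlhe41, the closest relative of Bhlhe40, lies on the same chromosome (145858243 to 145865558, minus strand, ENSMUSG00000030256.11). It was at 0.198 and 4.94 CPM in WT, 4.27 and 1.06 CPM in G0APOL1, and 2.74 and 2.99 CPM in G2APOL1. The WT libraries hold 2 and 45 reads, so the spread within WT covered the whole range of the other groups. Its changes were 0.06 ± 1.14, 0.16 ± 1.13 and 0.10 ± 1.13 in G0APOL1 against WT, G2APOL1 against WT and G2APOL1 against G0APOL1 (adjusted p = 0.985, 0.956 and 0.993, edgeR). No direction can be read from these libraries. Per kilobase, Bhlhe41 was the lowest member in every group, at 0.383 ± 0.499, 0.397 ± 0.337 and 0.427 ± 0.0261 in WT, G0APOL1 and G2APOL1, against 8.94 to 15.7 for the group means of Bhlhe40. The next lowest means in the transgenic groups were those of Ciart, at 1.32 ± 1.46 in G0APOL1, where its libraries overlapped those of Bhlhe41, and 1.62 ± 1.09 in G2APOL1. Nfil3 was at 2.08 ± 0.104, 2.80 ± 0.164 and 5.65 ± 0.154 in the 3 groups in the same order. A gene model on the opposite strand, Gm43909, shares 19.0% of its exonic bases and had 0 reads in all 6 libraries.

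Ciart, the repressor of the CLOCK and BMAL1 pair, lies on chromosome 3 (95878503 to 95882251, minus strand, ENSMUSG00000038550.10). It was at 6.05 and 17.7 CPM in WT, 0.641 and 5.32 CPM in G0APOL1, and 5.40 and 1.92 CPM in G2APOL1. Both WT libraries were above all 4 transgenic ones, but the higher library of a group was 2.92, 8.31 and 2.81 times the lower in WT, G0APOL1 and G2APOL1. Ciart was at -1.9985 ± 0.90 in G0APOL1 against WT (adjusted p = 0.224), -1.68 ± 0.88 in G2APOL1 against WT (adjusted p = 0.299) and 0.32 ± 0.90 in G2APOL1 against G0APOL1 (adjusted p = 0.989, edgeR). It passed in both comparisons with WT where no filter on low counts was used (adjusted p = 0.01 and 0.0406). It also passed in G0APOL1 against WT without G0APOL1 replicate 2, at -4.17 (adjusted p = 0.0432). Its near-identical processed pseudogene Gm9176 had at most 1 read in any library, and with it summed the log2 ratio was -1.96 in G0APOL1 against WT.

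**Figure D3:**
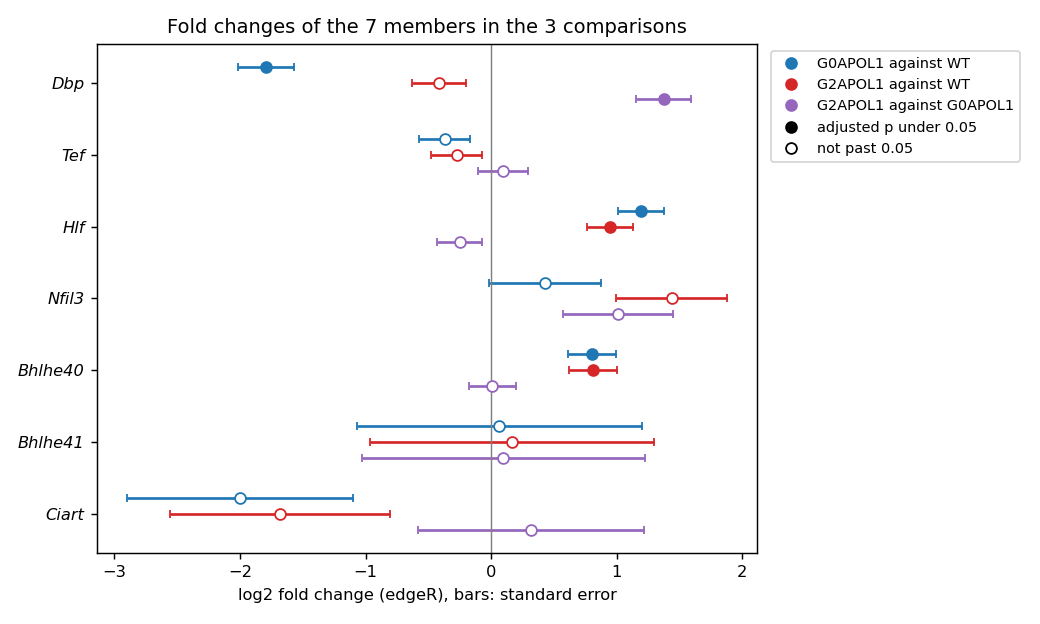
Points are log2 fold changes of the 7 genes in the 3 comparisons, bars are standard errors (edgeR, 2 libraries per group), and filled points have an adjusted p under 0.05. Dbp lies at -1.79 in G0APOL1 against WT and 1.38 in G2APOL1 against G0APOL1, Hlf and Bhlhe40 lie right of 0 against WT, and the bars of Bhlhe41 span both sides.

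By group overlap, 6 of 7 members were apart in each comparison with WT, 3 higher and 3 lower. This is read against 55.2% of tested genes whose groups do not overlap in G2APOL1 against WT (27.1% higher, 28.1% lower), and 49.4% in G0APOL1 against WT (25.0% higher, 24.3% lower). In G2APOL1 against G0APOL1, 3 of 7 were apart, 2 higher and 1 lower, against 39.2% of tested genes (19.7% higher, 19.5% lower). The members did not share a pattern. Hlf and Bhlhe40 were the pair most alike over the 6 libraries, with a root mean square difference of centred log2 CPM of 0.18. Bhlhe41 and Ciart were the pair least alike, at 2.03, and Dbp differed from Hlf by 1.25.

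By the same measure, the genes outside the list most like each member were sought among 12582 genes. Those most like Hlf were Cdadc1 (0.06), the mitochondrial peroxiredoxin Prdx3 (0.09) and the sulfate transporter Slc13a1 (0.09), against a median of 0.61 over the candidates. Those most like Bhlhe40 included Tgoln1 (0.04) and the mannose 6-phosphate receptor Igf2r (0.05), against a median of 0.51. Nfil3 was most like Lonrf1 (0.10), the LIM-domain protein Lmo4 (0.10) and the monoamine transporter Slc18a1 (0.14), against a median of 0.68. Lmo4 was at 38.8 and 33.9 CPM in WT, 43.0 and 44.0 CPM in G0APOL1, and 81.4 and 83.8 CPM in G2APOL1. It was chosen for this likeness. Tef was most like Clasp2, Rnf216 and Pop4 (0.05 to 0.06). Dbp had no candidate as close, the nearest being Trim21 (0.19), Csdc2 (0.22) and Mapk11 (0.23), all at 0.473 to 5.16 CPM. Bhlhe41 and Ciart were most like the low genes Synm (0.20) and Ubd (0.33).

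The core clock genes were read beside their outputs. Nr1d1, which encodes the repressor REV-ERB alpha, was at 85.9 and 82.8 CPM in WT, 13.3 and 14.6 CPM in G0APOL1, and 42.8 and 43.2 CPM in G2APOL1. Like Dbp it was lowest in G0APOL1, where it fell by 2.596 ± 0.21 against WT (adjusted p = 2.87e-05, edgeR), and higher in G2APOL1 than in G0APOL1, by 1.62 ± 0.21 (adjusted p = 0.0031). Of 7 core repressor genes, 2 fell in each comparison with WT, Nr1d1 and Nr1d2 in G0APOL1, and Nr1d1 and Per1 in G2APOL1; Nr1d1 alone was higher in G2APOL1 against G0APOL1. Both calls of Nr1d1 that involve G0APOL1 stood whichever library was left out, while that in G2APOL1 against WT was lost without either G2APOL1 library (adjusted p up to 0.17). Nr1d2 was lost without any library but WT replicate 1 (adjusted p up to 0.159), and Per1 without any WT or G2APOL1 library (adjusted p up to 0.204). Per1 was at 65.6 and 92.4 CPM in WT, 25.0 and 63.9 CPM in G0APOL1, and 20.2 and 25.5 CPM in G2APOL1, with both WT libraries above the other 4. It was at -0.83 in G0APOL1 against WT (adjusted p = 0.253), and it passed without G0APOL1 replicate 2, at -1.645 (adjusted p = 0.015). In that comparison the repressor Cry1 passed without WT replicate 2, at 2.12 (adjusted p = 0.0422). Of the 3 activators, Clock rose in G0APOL1 against WT, by 1.00 ± 0.28 (adjusted p = 0.0422), a call lost whichever library was left out. Arntl was at 1.42 ± 1.35 and 1.56 ± 1.34 against WT in G0APOL1 and G2APOL1 (adjusted p = 0.615 and 0.548), with 5 to 20 reads per library.

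**Figure D4:**
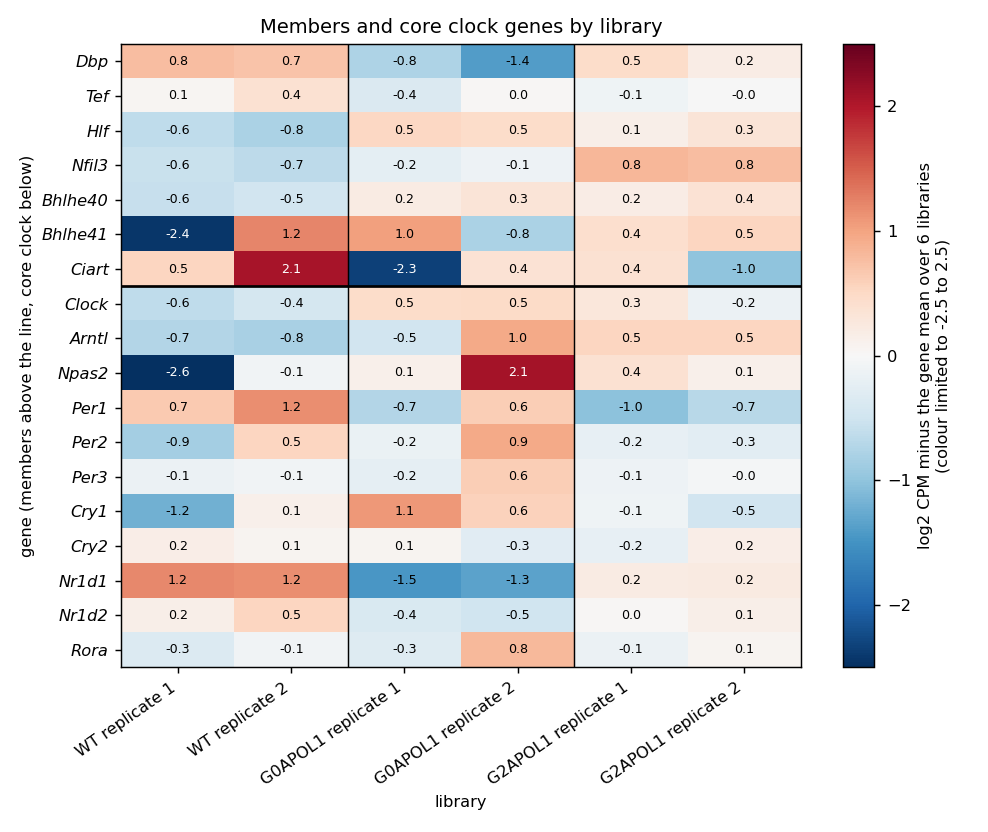
Each cell is log2 CPM (prior count 2) minus the gene's mean over the 6 libraries, with the 7 members above the line and 11 core clock genes below it, and libraries grouped by genotype. Dbp and Nr1d1 are below their means in both G0APOL1 libraries, at -0.76 and -1.39 and at -1.46 and -1.34, while Hlf, Bhlhe40 and Clock are below theirs in both WT libraries.

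Targets and other rhythmic genes were counted from lists of known genes. Of 7 tested genes that PAR bZIP factors are known to drive in mouse liver or brain, Alas1, the first enzyme of haem synthesis, rose in G2APOL1 against WT and none passed in the other comparisons. Alas1 was at 110 and 94.1 CPM in WT, 130 and 157 CPM in G0APOL1, and 194 and 206 CPM in G2APOL1, and rose by 0.97 ± 0.18 (adjusted p = 0.00658, edgeR). In G0APOL1, where Dbp was lowest, it was at 0.49 ± 0.18 (adjusted p = 0.127), and the call in G2APOL1 was lost without either G2APOL1 library (adjusted p up to 0.0785). Next by p in this list, in G2APOL1 against WT, came the pyridoxal kinase gene Pdxk at 0.62 ± 0.19 (adjusted p = 0.0624) and the cytochrome P450 reductase gene Por at 0.41 ± 0.20 (adjusted p = 0.262). The list's median was 0.41 in G2APOL1 against WT and 0.39 in G0APOL1 against WT. Without WT replicate 1, Alas1, Pdxk and Por all passed as higher in both comparisons with WT, with adjusted p up to 0.0232 for Pdxk and Por in G2APOL1 and up to 0.047 for the 3 genes in G0APOL1. Cyp2a5 passed in G0APOL1 against WT without G0APOL1 replicate 2, at 1.13 (adjusted p = 0.0485), and Slc6a6 without WT replicate 2, at 0.67 (adjusted p = 0.0351). Of 7 clock-controlled genes rhythmic in many tissues, none passed in edgeR's test in any comparison. Of these 7, 1, 0 and 1 had an unadjusted p under 0.05 in the 3 comparisons in the order used above, against 3247, 3242 and 970 of all 14386 tested genes. With G0APOL1 replicate 1 left out, Cdkn1a of this list passed as lower in G2APOL1 against both other groups (adjusted p up to 0.0275), and without G0APOL1 replicate 2 against WT (adjusted p = 0.0318). Usp2, a ubiquitin protease of this list, was at 107 and 93.7 CPM in WT, 110.5 and 145 CPM in G0APOL1, and 112 and 106 CPM in G2APOL1.

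Other lists linked to these factors or to the clock were counted in the same way. Of 12 glucocorticoid-induced genes, 5 fell in G2APOL1 against WT, among them the kinase gene Sgk1 by 1.93 ± 0.29 (adjusted p = 0.00298) and Ddit4 by 2.07 ± 0.34 (adjusted p = 0.00329, edgeR). Both of these calls stood whichever library was left out, while the count ranged from 2 without G2APOL1 replicate 2 to 7 without either G0APOL1 library. Cebpd, Mt1 and Per1 were lost without G2APOL1 replicate 2, and Zbtb16 and Dusp1 were gained without either G0APOL1 library. In G0APOL1 against WT 1 of them rose, Errfi1, and 1 fell, Mt1; Errfi1 was lost without G0APOL1 replicate 2 (adjusted p = 0.0638), and Mt1 without WT replicate 2 or either G0APOL1 library (adjusted p up to 0.122). Without G0APOL1 replicate 2, 3 fell and none rose in that comparison. Dusp1 changed direction in G0APOL1 against WT, at -1.369 without G0APOL1 replicate 2 and 0.9934 without G0APOL1 replicate 1. In G2APOL1 against G0APOL1 2 fell, Sgk1 by 1.94 ± 0.29 (adjusted p = 0.0155) and Ddit4 by 1.93 ± 0.34 (adjusted p = 0.0254). The first of these was lost without either G0APOL1 library or G2APOL1 replicate 1 (adjusted p up to 0.0961), and the second without replicate 2 of either group (adjusted p up to 0.258). The count there ranged from 0 without G0APOL1 replicate 2 to 4 without G0APOL1 replicate 1.

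Of 14 hypoxia-induced genes, a group that in other settings moves with Bhlhe40, 1 rose in each comparison with WT, Ndrg1, by 2.05 ± 0.26 in G0APOL1 against WT (adjusted p = 0.000536) and 1.19 ± 0.26 in G2APOL1 against WT (adjusted p = 0.0126), the second lost without either G2APOL1 library (adjusted p up to 0.0776). The list's medians were 0.49 and 0.45 in these comparisons, with 4 and 6 genes at an unadjusted p under 0.05. Of all 14386 tested genes, 3242 and 3247 were under 0.05 in these comparisons. Without WT replicate 1, 4 genes rose in each, Bnip3 and Pgk1 among those gained in both, and Car9 was gained in G2APOL1 against WT without WT replicate 2 (adjusted p = 0.0247). Of 12 tested immediate early genes, 1 rose and 1 fell in G0APOL1 against WT, Ier3 and Klf6, both lost without either G0APOL1 library and Klf6 also without WT replicate 1 (adjusted p up to 0.136 and 0.0988), and none passed in the other comparisons, where 3 (G2APOL1 against WT) and 2 (G2APOL1 against G0APOL1) had an unadjusted p under 0.05. Ier3 passed as lower in G2APOL1 against G0APOL1 without either WT library (adjusted p up to 0.0269). Of 5 bZIP genes of the C/EBP family, Cebpb and Cebpd fell in G2APOL1 against WT, and Cebpa rose in G0APOL1 against WT. Cebpd was lost without G2APOL1 replicate 2 (adjusted p = 0.0948), Cebpb without WT replicate 1 or either G2APOL1 library (adjusted p up to 0.179), and Cebpa without any library but G0APOL1 replicate 2 (adjusted p up to 0.438). Cebpd passed in G0APOL1 against WT without G0APOL1 replicate 2, at -1.66 (adjusted p = 0.0476), and Cebpb passed as lower in G2APOL1 against G0APOL1 without either WT library or G0APOL1 replicate 1 (adjusted p up to 0.022). Of 4 KLF genes linked to the clock, Klf13 fell in G0APOL1 against WT by 0.94 ± 0.27 (adjusted p = 0.0486), a call lost without any library but WT replicate 1 (adjusted p up to 0.266). It passed in G2APOL1 against WT without WT replicate 1, at -1.10 (adjusted p = 0.0124). Of 6 clock kinase and ligase genes none passed in edgeR's test in any comparison, with 2, 3 and 1 at an unadjusted p under 0.05 in the same order; Fbxw11 passed as higher in both comparisons with WT without WT replicate 1 (adjusted p up to 0.0378). Of 13 kidney transport genes with a daily rhythm, 3 fell in G2APOL1 against WT, and 1 rose and 3 fell in G0APOL1 against WT. The water channel genes Aqp2 and Aqp4 were among the falls in both. The remaining fall in G2APOL1 against WT was Sgk1, counted above among the glucocorticoid-induced genes. Aqp2 is also one of the principal cell markers given below, so these lists share genes. In G2APOL1 against G0APOL1 1 gene of this list rose, Aqp4, and 1 fell, Sgk1. In G2APOL1 against WT, Aqp2 was lost without either G2APOL1 library (adjusted p up to 0.0511), and Aqp4 without those or WT replicate 1 (adjusted p up to 0.34), and 1 fall was left without either G2APOL1 library. The falls of Aqp2 and Aqp4 in G0APOL1 against WT stood whichever library was left out. The remaining fall of this list there was near the threshold (adjusted p = 0.0486, edgeR). Aqp4 was also higher in G2APOL1 than in G0APOL1, by 1.12 ± 0.20 (adjusted p = 0.0251), at 171 and 131 CPM in WT, 39.8 and 41.4 CPM in G0APOL1, and 94.5 and 81.9 CPM in G2APOL1. That call was lost without any of the 4 transgenic libraries (adjusted p up to 0.275).

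Markers of several kidney cell types moved with the groups, and those of others passed in no comparison. Of 7 proximal tubule markers, 6 rose in each comparison with WT (3 in G2APOL1 without G2APOL1 replicate 2, 4 without G2APOL1 replicate 1, and at least 4 in G0APOL1 whichever library was left out), and their summed level was 2611 to 3244 CPM in WT, 6686 to 6984 CPM in G0APOL1 and 6657 to 6963 CPM in G2APOL1, in the direction of Hlf and Bhlhe40. Of 5 principal cell markers, 3 fell in G0APOL1 and 2 in G2APOL1 against WT (for G2APOL1, 0, 1 and 1 without G2APOL1 replicate 1, G2APOL1 replicate 2 and WT replicate 1), with a summed level of 1530 to 2394 CPM in WT, 506 to 830 CPM in G0APOL1 and 762 to 773 CPM in G2APOL1. Of 6 endothelial markers, 5 fell in each comparison with WT (1, 2 and 2 in G2APOL1 without G2APOL1 replicate 2, G2APOL1 replicate 1 and WT replicate 2, and 2 in G0APOL1 without G0APOL1 replicate 2), from 310 to 346 CPM summed in WT to 131 to 145 CPM in G0APOL1 and 156 to 173 CPM in G2APOL1. None of these 18 markers was at 0 in any library, and none passed between G2APOL1 and G0APOL1. Dbp passed in G0APOL1 against WT, as did most of these markers. It also passed in G2APOL1 against G0APOL1, where a marker of another cell type, given next, passed too. Of 4 distal convoluted tubule markers, Calb1 fell in G2APOL1 against G0APOL1 by 0.98 on the log2 scale (adjusted p = 0.0455), a call lost without any of the 4 transgenic libraries, and their sum was 213 to 324 CPM in WT, 783 to 1150 CPM in G0APOL1 and 437 to 481 CPM in G2APOL1. Summed urothelium markers were at 85.0 to 92.8 CPM in WT and 9.93 to 20.1 CPM in the transgenic libraries. Macrophage markers were at 189 to 242 CPM and 116.5 to 133 CPM, and those of fibroblasts, mesangium and smooth muscle at 341 to 446 CPM and 153 to 236 CPM. Of 6 macrophage markers, 3 fell in each comparison with WT. Red cell markers were at 1651 to 2214 CPM and 676 to 1071 CPM, and of these 6, 4 fell in G2APOL1 and 3 in G0APOL1 against WT. Hba-a2 of the red cell list lay the other way without passing, at 52.65 and 0 CPM in WT and 155.8 to 270.3 CPM in the transgenic libraries. Adipocyte markers reached 47.3 CPM in G2APOL1 replicate 2, with at most 5.06 CPM in any other library. Of 4 thick ascending limb markers and 5 podocyte markers, none passed in any comparison in the fit of all 6 libraries. Slc12a1 lay lower and Cldn16 higher in both transgenic groups than in WT without passing. In G2APOL1 against WT they were at -0.72 and 1.35 (adjusted p = 0.0888 and 0.106, edgeR). Of 5 intercalated cell markers, 1 rose and 2 fell in G2APOL1 against WT, and 1 rose and 1 fell in G0APOL1 against WT. Of 8 lymphocyte and natural killer cell markers, cells in which Nfil3 also acts, 6 were at 0 in at least 1 library, and their sum was at most 10.99 CPM in any library. In bulk tissue, fewer cells of a type and less RNA per cell cannot be told apart, and the part of cell makeup in the changes of Dbp, Hlf and Bhlhe40 was not tested.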

How the data were processed

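Bulk RNA was sequenced from 10 mg of frozen kidney per library; per the labels, the RNA integrity number was at least 6, the library kit was NEBNext Ultra RNA and all libraries have batch 1. The authors deposited expected counts per gene, estimated read numbers that are not scaled between libraries; 1.39% to 1.55% of genes per library are not whole. Per the submitters' processing notes, the build was mm10 and Cell Ranger ARC 2.0.2 was among the tools, with no role given; aligner and counter: not given in the sources used here. Of 54146 identifiers, 54079 matched GENCODE M21 (GRCm38).

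Counts were rounded, filtered with filterByExpr by group and scaled by TMM. All 6 libraries entered 1 edgeR 4.0.16 fit (R 4.3.3, glmQLFit, robust, 3 residual degrees of freedom, common biological coefficient of variation 0.315), tested on simulated data with 200 changed genes. The standard error is the log2 change divided by the square root of F. Levels per kilobase use the union of annotated exons. Near-identical copies were sought with minimap2 2.31 (95% identity over 50% of a transcript). Alternatives were DESeq2 size factors, other filters, DESeq2 1.42.0, limma-voom (limma 3.58.1), 4-library fits, a replicate block, removal of mitochondrial genes and of each library. The members and lists were chosen with earlier results of these data known. The text names all 7 members, up to 4 genes with the smallest p per list, any core clock gene, and up to 3 genes most like each member with a mean of at least 1 CPM, without unnamed gene models. Sphk2, Gm43909 and Gm9176 were added after their values were seen. Of the genes this rule names, 2 are not reported here.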

Additional observations from a re-analysis of the deposited data

How the results depend on the processing

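The counts of members called, 2, 3 and 1 in G2APOL1 against WT, G0APOL1 against WT and G2APOL1 against G0APOL1, stayed within 1.5 times under every alternative other than leaving out a library. With a library left out they ranged from 0 to 2, 2 to 3 and 0 to 1. Over all genes, 1178, 1175 and 69 were called. Without a filter on low counts 1806 were called in G2APOL1 against WT and 245 between the transgenic groups. DESeq2 called 151 in G2APOL1 against G0APOL1. Fits of only the 4 libraries compared called 658 in G0APOL1 against WT and 119 in G2APOL1 against G0APOL1. With a library left out the counts ranged from 338 to 1835 in G2APOL1 against WT, from 599 to 1721 in G0APOL1 against WT and from 27 to 150 in G2APOL1 against G0APOL1. Directions that turned belonged to members that passed in no such comparison. Bhlhe41 ranged from -0.78 without WT replicate 1 to 3.78 without WT replicate 2 in G2APOL1 against WT. In G0APOL1 against WT it turned to -0.87 without WT replicate 1 and ranged from -1.31 without G0APOL1 replicate 1 to 3.68 without WT replicate 2, and in the comparison of the transgenic groups it turned to -0.57 without G0APOL1 replicate 2. In G2APOL1 against G0APOL1, Ciart turned to -0.45 without G0APOL1 replicate 1 and ranged from -0.55 without G2APOL1 replicate 1 to 2.51 without G0APOL1 replicate 2. There Tef ranged from -0.0113 to 0.305 without G0APOL1 replicate 1 or 2, and Bhlhe40 from -0.0507 to 0.142 without G2APOL1 replicate 2 or 1. The cause was not tested. Deviations of same-numbered libraries correlated at 0.0426 to 0.0956. With 2 libraries per group this cannot show whether the replicate numbers pair the libraries. A replicate block gave 120 calls in G2APOL1 against G0APOL1, turned Bhlhe41 to -0.0439 there and changed no member's call. The low counts of Bhlhe41, Ciart and Nfil3 limit what these libraries can show for them.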
